A study of Homo sapiens with 6 samples.

Results

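The cytosolic ribosomal protein genes were described in 3 established human oral squamous cell carcinoma lines named HSC3, HSC4 and SAS, with every line cultured in HPLM and in DMEM. HPLM is a human plasma-like medium whose nutrients and salts are set to levels found in blood plasma, and DMEM is the conventional culture medium. Both media carried 10% heat-inactivated fetal bovine serum and the same antibiotic mixture. Each line gave 1 polyadenylated RNA library in HPLM and 1 in DMEM, so the 6 libraries hold 3 lines per medium and no repeat culture of a line within a medium. The lines thus serve as the replicates of the medium. With the line as a term, p-values between media rest on how the difference between media varied across the lines. Members were chosen by symbol alone: every gene named RPL or RPS plus a number, with the A, X or L suffixes, together with RPLP0, RPLP1, RPLP2 and RPSA. This gave 84 genes of the 27852 symbols measured, 52 of the large and 32 of the small subunit, and their pseudogenes were kept apart. RPL10L, a testis paralog of RPL10, was at or near 0 in every library and did not pass the filter on low counts, and 83 members were tested.

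The cytosolic ribosome joins a small subunit, which reads the messenger RNA, and a large subunit, which forms the peptide bond, and most of their proteins are needed in equal number. Their mRNAs are among the most abundant of a growing cell. Most begin with a cytosine followed by an unbroken run of pyrimidines, the terminal oligopyrimidine (TOP) element, through which mTORC1, the nutrient-sensing kinase complex, controls their translation and LARP1 protects them.

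The library totals lay between 17715962 and 20171750 length-scaled counts. Of 12 epithelial markers all were detected. Their summed level was between 4337 and 7678 CPM, the count scaled to a common library size, in HPLM libraries and between 5057 and 8558 CPM in DMEM libraries. Single markers differed widely between lines. KRT14 had 10.8 CPM in HPLM and 4.39 CPM in DMEM in HSC4, against 1177 and 1501 CPM in HSC3 and 164 and 205 CPM in SAS. Of 14 markers of fibroblasts, leukocytes, endothelium, erythroid and neural cells, 4 passed the filter, led by the neural tubulin TUBB3, which carcinoma lines also express, and COL3A1 and HBB were at 0 throughout. The summed level of these 14 markers was 32.7, 72.5 and 93.5 CPM in HSC3, HSC4 and SAS in HPLM, against 21.9, 65.4 and 119 CPM in DMEM.

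The bases around the annotated start of the genes that the results turn on are shown first, because the TOP element is the feature that most members share. Each window runs from 15 bases before the start to 15 bases into the transcript, read 5′ to 3′ on the strand of the gene from RefSeq on GRCh38.p14. Capitals mark the unbroken run of C and T where the annotated start is a C. The first 7 genes hold such a run and the last 3 do not at this start.
RPSA: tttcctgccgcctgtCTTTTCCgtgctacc
RPLP2: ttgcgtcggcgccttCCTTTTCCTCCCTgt
RPS9: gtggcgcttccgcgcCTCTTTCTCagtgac
RPS24: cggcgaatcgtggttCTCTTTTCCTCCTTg
RPS6: aagcggaagttggccCTCTTTTCCgtggcg
RPL24: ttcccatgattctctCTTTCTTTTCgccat
RPL22L1: cgcggccgtagcttcCTCTCTgctctcgcg
RPL9: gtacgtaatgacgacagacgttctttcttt
RPL32: gggttacgacccatcagcccttgcgcgcca
RPS28: tccccgaagcacgtgactcctctccgccag

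The windows of RPSA (chr3:39406705-39406734, plus strand), RPLP2 (chr11:809952-809981, plus strand), RPS9 (chr19:54200843-54200872, plus strand), RPS24 (chr10:78033848-78033877, plus strand) and RPS6 (chr9:19380222-19380251, minus strand) cover the promoter edge and the first bases of the 5′ untranslated region. Those of RPL24 (chr3:101686704-101686733, minus strand), RPL22L1 (chr3:170870181-170870210, minus strand), RPL9 (chr4:39458908-39458937, minus strand), RPL32 (chr3:12841551-12841580, minus strand) and RPS28 (chr19:8321481-8321510, plus strand) were placed in the same way. RefSeq gave a start for 67 of the 84 members. The start was a C in 47 of them (70.1%), against 4093 of all 27305 promoters of the table. A C that opened a run of at least 5 pyrimidines on the gene's own strand was present in 43 of 67 members (64.2%), against 4.04% of all promoters. It was present in 26 of 42 large subunit members and in 17 of 25 small subunit members, and the longest run, of 19 bases, was in RPL39. A start annotated a few bases away from the true one would hide a run, so its absence at RPL9, RPL32 and RPS28 describes this window alone.

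Levels differed widely between members even though the ribosome holds them in nearly equal number. The values are scaled transcript abundances and are therefore already per transcript length, so that genes can be compared on the CPM scale. The median member had a mean level of 1877 CPM over the 6 libraries, and the members' interquartile range ran from 1187 to 2936 CPM. RPS24 stood highest at a mean of 6203 CPM, followed by RPL37 at 6171 CPM, RPL35 at 5621 CPM, RPS23, a protein of the decoding centre, at 5238 CPM and RPS2 at 5217 CPM.

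At the other end, 13 tested members averaged under 150 CPM, and the next, RPL21, averaged 215 CPM. Among the lowest were RPL3L at 0.807 to 1.84 CPM in single libraries, RPS10 at a mean of 15.6 CPM, RPS26 at 21.1 CPM and RPS27 at 39.4 CPM. RPL3L is the muscle paralog of RPL3, the protein next to the peptidyl transferase centre. The order also depends on which transcripts were counted. The members have 828 transcripts in GENCODE release 29, of which 65 in 25 members were not analysed here, and the first-numbered transcript is among them for 5 members, including RPL26, RPS7, RPS10 and RPS27. The levels of such genes describe their remaining transcripts only. RPS26 averaged 21.1 CPM, RPS9 averaged 59.6 CPM and RPL10 averaged 97.1 CPM. Their first-numbered transcripts were counted, but 1 coding transcript of each gene was not. The pseudogene RPS26P19, kept apart from RPS26, averaged 29.2 CPM on plain library totals.

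Ribosomal protein mRNA took a larger share of the library in HPLM than in DMEM in each line. The share was 18.5%, 16.2% and 19.9% in HPLM in HSC3, HSC4 and SAS, against 17.6%, 14.3% and 19.0% in DMEM, ratios of 1.05, 1.13 and 1.05. HSC4 had the smallest share in either medium and the largest ratio. The HPLM range nonetheless overlapped the DMEM range, and the lines differed more from each other than the media did. In bulk RNA a larger share for these genes and less RNA of other genes per cell cannot be told apart.

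**Figure D1:**
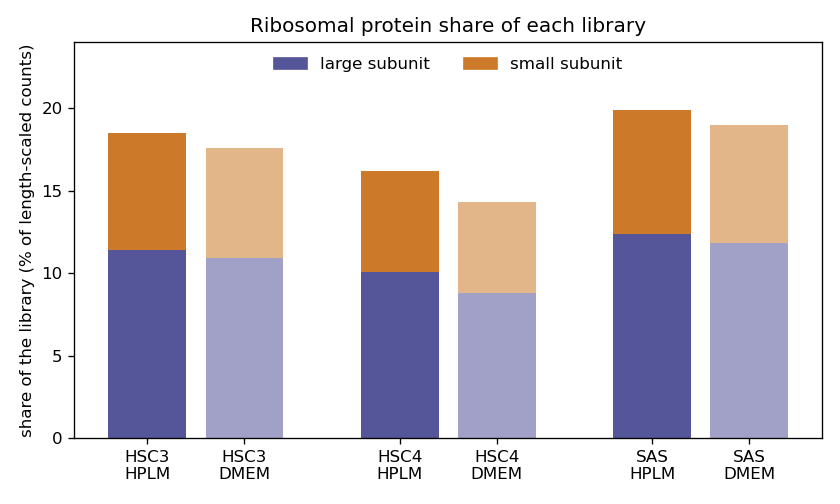
Share of each library taken by the ribosomal protein genes (percent of length-scaled counts), with the large subunit at the bottom of each bar and the small subunit on top, HPLM left of DMEM within each line. The HPLM bar is taller in all 3 lines, and the HSC4 bars, at 16.2% and 14.3%, are the lowest.

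Both subunits took part in the larger share. The large subunit held 11.4%, 10.1% and 12.4% of the library in HPLM in HSC3, HSC4 and SAS, against 10.9%, 8.80% and 11.9% in DMEM. The small subunit held 7.09%, 6.11% and 7.52% in HPLM, against 6.65%, 5.49% and 7.15% in DMEM. The ratio of large to small was 1.61, 1.65 and 1.64 in HPLM, against 1.65, 1.60 and 1.66 in DMEM. This ratio was lower in HPLM in HSC3, by 0.03 on the log2 scale, and in SAS, by 0.01, and higher in HSC4, by 0.04.

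Gene by gene, no member passed the test between media. In edgeR's quasi-likelihood fit over all 13236 genes with the line as a term, 0 of 83 members had an adjusted p under 0.05, against 0.00756% of all genes, which is 1 gene. The smallest adjusted p of a member was 0.362. At an unadjusted p under 0.05, 23 of 83 members were higher in HPLM, against 5.57% of all genes tested, and 2 were lower, against 4.55% of all genes. DESeq2, an alternative, called 2 members higher in HPLM, RPSA among them, of 127 genes in all, and limma-voom called 0 members. The count of 23 was 22 without HSC3, 9 without HSC4, 8 without SAS, 8 without scaling factors and 0 without the line as replicate block, and that of 2 lower members was 0 without HSC4 or SAS and 0 without the block.

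The direction was shared by most members. Higher levels in HPLM in all 3 lines were seen for 54 of 83 members, which is 65.1%, against 17.0% of all genes tested. Lower levels in all 3 lines were seen for 3 members, RPL22L1 and RPS6 among them, against 17.0% of all genes. The median log2 fold change (HPLM minus DMEM) was 0.18 over the 83 members and 0.00 over all genes, with 77 members above 0 and 6 below. Without HSC4 the member median was 0.11. The interquartile range of the members ran from 0.10 to 0.23, narrower than that of all genes, from -0.15 to 0.15. The members also had a far higher median level, 1877 CPM against 16.1 CPM over all genes tested. The part of level in the shared direction and the narrower range was not tested.

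By line, the members had a median log2 ratio of 0.26 in HSC4, 0.15 in SAS and 0.09 in HSC3, while the median of all genes was 0.00 in each. The medians of the large and the small subunit were 0.30 and 0.26 in HSC4, 0.15 and 0.18 in SAS, and 0.07 and 0.11 in HSC3. In the fit, the large subunit's median was 0.18 and the small subunit's 0.17, a difference of 0.01, while the difference between subunits within single lines was 0.04 in HSC4, -0.03 in SAS and -0.04 in HSC3. Of 51 large subunit members 33 were higher in HPLM in every line, as were 21 of 32 small subunit members, against 17.0% of all genes. Members have short transcripts, with a median length of 678 bases against 2087 bases over all genes, and with a trend on length removed the medians became 0.26 in HSC4, 0.02 in SAS and 0.07 in HSC3. Whether the line of origin changes the response could not be tested, since 1 library per line and medium leaves no residual degrees of freedom for that term.

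Members whose start holds a TOP-like run and those whose start does not had medians of the same size between media. The 43 genes with the run had a median log2 fold change of 0.18, with 40 above 0, and the 23 tested genes without it at the annotated start had a median of 0.18, with 21 above 0. At an unadjusted p under 0.05 in edgeR, 15 of the 43 and 5 of the 23 were higher in HPLM, against 5.57% of all genes. The difference between these groups was not tested.

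**Figure D2:**
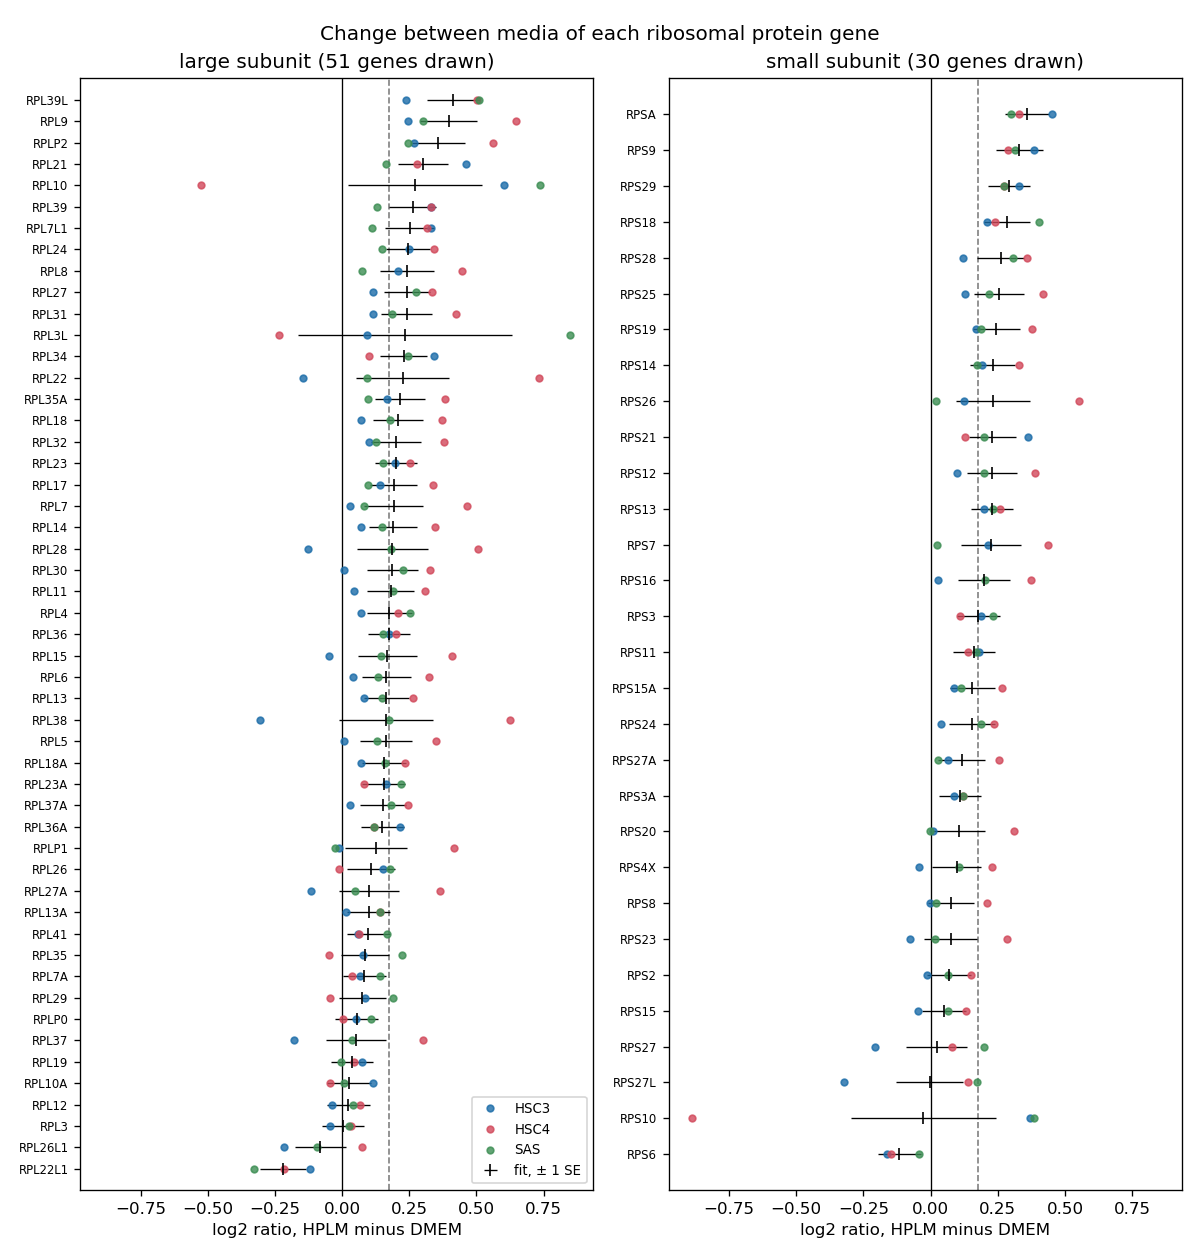
Log2 ratio of HPLM to DMEM (x axis) for 81 of the 83 tested ribosomal protein genes (y axis, ordered by the fitted change), large subunit on the left and small subunit on the right. Dots are the 3 lines, the black tick and bar are the fitted change ± 1 SE, the solid line marks 0 and the dashed line the median member at 0.18; most genes lie to the right of 0, and RPL22L1 and RPS6 lie to the left in all 3 lines.

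The members with the smallest p-values between media came from both subunits. RPSA (chr3:39406689-39412542, plus strand, in GENCODE 29), a small subunit protein also known as the laminin receptor, had 2009, 1636 and 1904 CPM in HPLM in HSC3, HSC4 and SAS, against 1468, 1304 and 1548 CPM in DMEM. Every HPLM library lay above every DMEM library. Its log2 fold change was 0.36 ± 0.08 (SE, n = 3 lines per medium; edgeR's quasi-likelihood test, unadjusted p = 0.00466, adjusted p = 0.362 by Benjamini-Hochberg).

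RPS9, which helps keep decoding accurate, had 76.6, 83.6 and 39.0 CPM in HPLM, against 58.7, 68.5 and 31.4 CPM in DMEM. The SAS libraries were the lowest in either medium, and the log2 fold change was 0.33 ± 0.09. RPS29, a small zinc-binding protein of the head, had 3587, 1270.5 and 2925 CPM in HPLM, against 2857, 1052 and 2420 CPM in DMEM. Its ratio varied little between lines, at 0.33, 0.27 and 0.27 on the log2 scale.

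Of the large subunit, RPLP2, one of the acidic stalk proteins that recruit translation factors, had 2941, 1307 and 1491 CPM in HPLM, against 2441, 885 and 1259 CPM in DMEM. HSC4 showed the largest ratio, 0.56 on the log2 scale, and the fitted change was 0.36 ± 0.10. RPL9 (chr4:39452521-39458949, minus strand), a protein at the base of that stalk, had 2248, 596 and 2234 CPM in HPLM, against 1895, 380.5 and 1813 CPM in DMEM. HSC4 stood far below the other lines in both media, and the fitted change was 0.40 ± 0.11. RPL39L had the largest fitted change, 0.41 ± 0.10, and is described with the other paralogs. For RPS9, RPS29, RPLP2, RPL9 and RPL39L the adjusted p in edgeR's quasi-likelihood test was between 0.362 and 0.382.

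The members on the opposite side were few. RPS6, the substrate of S6 kinase downstream of mTORC1, had 3446, 1876 and 3049 CPM in HPLM, against 3859, 2077 and 3138 CPM in DMEM. It was lower in HPLM in each line, and the fitted change was -0.12 ± 0.08.

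Scaling the libraries to the members themselves asks which members left the common shift. In that edgeR fit 0 of 83 members had an adjusted p under 0.05, against 0.00756% of all genes tested, 1 gene. An unadjusted p under 0.05 was found for 6 members, against 17.0% of all genes. This scaling places the members near 0 by construction and most other genes lower, with a median of -0.15 over all genes. The lower share among the members therefore follows in part from the scaling and does not measure how closely they move together. DESeq2 with the same aim also called 0. The smallest p belonged to RPL22L1, at -0.38 ± 0.09 relative to the members (log2, SE), with an unadjusted p of 0.0064 and an adjusted p of 0.214 in edgeR's quasi-likelihood test. RPS6 stood at -0.27 ± 0.08, while RPL39L stood at 0.26 ± 0.10 above the members. The median member was at 0.02 and the interquartile range ran from -0.06 to 0.08.

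**Figure D3:**
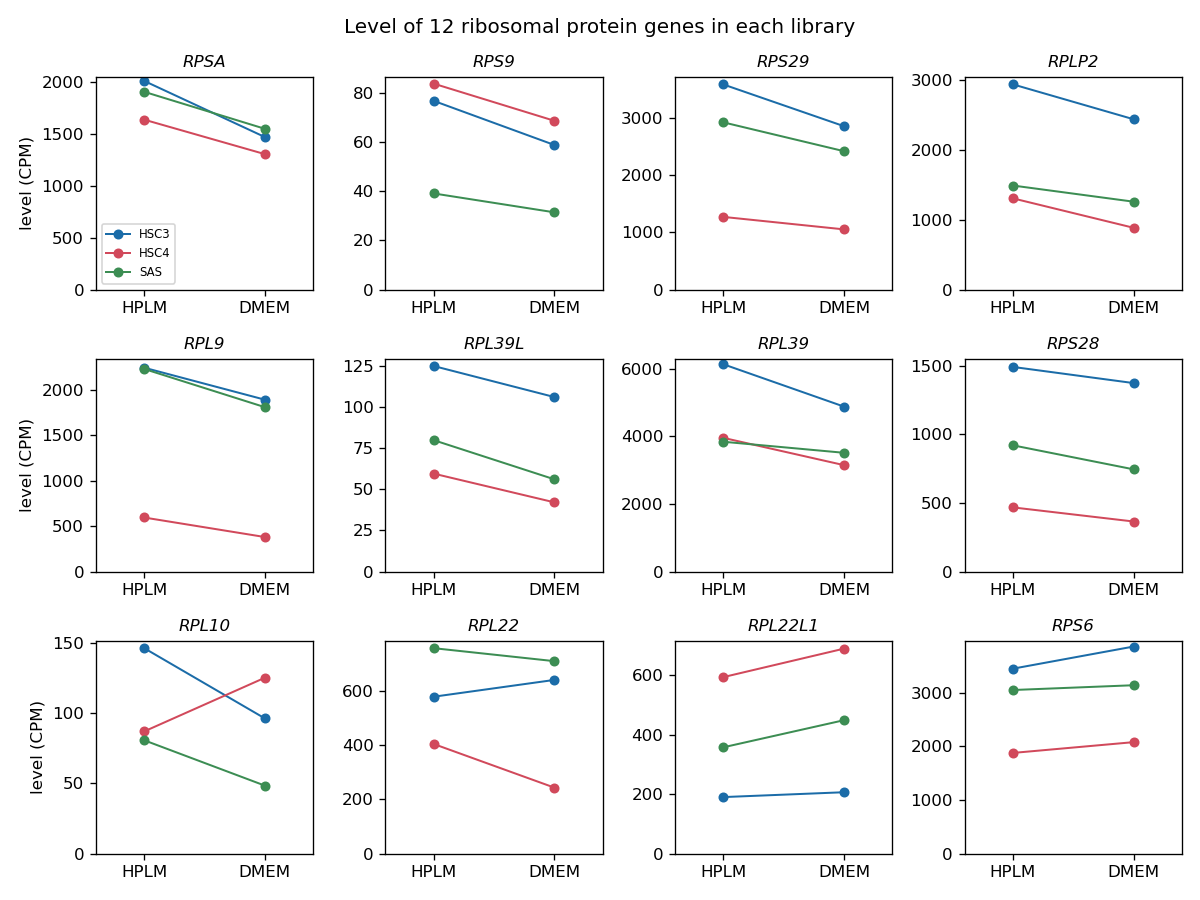
Level (CPM, linear axis from 0) of 12 ribosomal protein genes in each library, HPLM on the left and DMEM on the right of each panel, with the 2 libraries of a line joined. RPSA, RPS9, RPS29, RPLP2, RPL9, RPL39L, RPL39 and RPS28 slope down towards DMEM in all 3 lines, RPL22L1 and RPS6 slope up, and the lines of RPL10 and RPL22 do not share a slope.

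The divergent paralogs did not share a direction. RPL39L, a testis-enriched relative of RPL39, which lines the exit tunnel, had 125, 59.4 and 79.7 CPM in HPLM in HSC3, HSC4 and SAS, against 106, 42.0 and 55.9 CPM in DMEM. RPL39 itself had 6137, 3958 and 3842 CPM in HPLM, against 4882, 3149 and 3515 CPM in DMEM, so the paralog was a small addition to it in every library. The fitted change of RPL39 was 0.26 ± 0.09.

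RPL22L1 is the paralog of RPL22, an RNA-binding protein that in mouse holds down the Rpl22l1 transcript. RPL22L1 had 190.0, 594 and 358 CPM in HPLM, against 206, 690 and 449 CPM in DMEM, and was lower in HPLM in every line (-0.22 ± 0.09). RPL22 had 578, 404 and 757 CPM in HPLM, against 639.9, 243 and 709 CPM in DMEM, with a fitted change of 0.22 ± 0.17. RPL22 was lower in HPLM in HSC3 and higher in the other lines, and HSC4 had more RPL22L1 than RPL22 in both media whereas HSC3 and SAS had less. The pseudogene RPL22P1, kept apart from RPL22, had 250, 181 and 341 CPM in HPLM, against 358, 135 and 294 CPM in DMEM. These CPM are without TMM factors. Reads shared by RPL22 and RPL22P1 cannot be told apart, which leaves the size of the difference between RPL22L1 and RPL22 in HSC4 uncertain.

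RPL7L1, a nucleolar relative of RPL7 that takes part in ribosome assembly, had 51.9, 118 and 161 CPM in HPLM, against 41.2, 95.0 and 149.6 CPM in DMEM, a change of 0.25 ± 0.09. Its namesake RPL7 averaged 3688 CPM, with a log2 fold change of 0.19 ± 0.11. RPS27L, a p53 target, was at 0.00 ± 0.12, and RPS27 at 0.02 ± 0.11. RPL26L1 was at -0.08 ± 0.10, and RPL26, which also binds the p53 mRNA, at 0.11 ± 0.09. RPL3L and RPL3 were at 0.24 ± 0.40 and 0.00 ± 0.08. RPL10, a late-joining protein of the large subunit, had 146, 86.8 and 80.6 CPM in HPLM, against 96.1, 125 and 48.3 CPM in DMEM, so that HSC4 went the other way from HSC3 and SAS, and the fitted change was 0.27 ± 0.25.

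Below the level of genes, 683 member transcripts were tested among 55534 and 0 passed an adjusted p of 0.05 in edgeR, where the smallest adjusted p was 0.970. At an unadjusted p under 0.05, 56 of the 683 were higher in HPLM, against 1.93% of all transcripts, and 5 were lower, against 1.70% of all transcripts. The total of 61 became 37 without HSC3, 31 without SAS and 7 without the line as replicate block. RPS24, whose last exons are spliced in alternative ways, held the transcript with the smallest p. RPS24-203 had 265, 119 and 284 CPM in HPLM, against 119, 49.0 and 158 CPM in DMEM, a log2 change of 1.09 ± 0.12. RPS24-201 had 1670, 214 and 884 CPM in HPLM, against 1014, 159 and 304 CPM in DMEM, a change of 0.89 ± 0.26. The main transcript, RPS24-202, was at 0.03 ± 0.12, and the gene as a whole at 0.15 ± 0.08. Transcripts of 1 gene that share most of their bases are hard to apportion, and the division between them carries that uncertainty.

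The lines differed far more than the media. Each line was set against the mean of the other lines in the same edgeR fit, with both of its libraries, and these contrasts share libraries with each other. Both libraries of a line come from different media, so these p-values do not measure the spread between repeat cultures. For each gene the 3 log2 differences sum to 0, so a low level in 1 line raises the values of the other lines. The counts for HSC4, SAS and HSC3 are therefore not separate results. In all, 75 of 83 members passed an adjusted p of 0.05 in at least 1 of the 3 contrasts, against 63.2% of all genes. In HSC4, 8 members were higher, against 21.6% of all genes, and 54 were lower, against 19.2% of all genes. In SAS, 43 were higher, against 20.7% of all genes, and 4 were lower, against 21.2% of all genes. In HSC3, 31 were higher, against 19.8% of all genes, and 12 were lower, against 17.2% of all genes.

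The median log2 difference of the members was -0.44 in HSC4, 0.30 in SAS and 0.20 in HSC3, while the median over all genes was 0.01, 0.01 and 0.02. Without scaling factors the HSC4 median was -0.30, with the median of all genes at 0.15, and the distance between them was -0.45, as it was with the scaling. Both subunits shared the shift. The medians of the large and small subunit were -0.46 and -0.44 in HSC4, 0.35 and 0.26 in SAS, and 0.18 and 0.24 in HSC3. Each line contributes only 2 libraries, and the counts of calls depended on single libraries. In SAS, the 43 higher members became 15 without its HPLM library and 10 without its DMEM library, and the 4 lower members became 1 in either case. In HSC4, the 54 lower members became 26 without its DMEM library, and the 8 higher members became 4 or 5 without either HSC4 library, either SAS library or the HPLM library of HSC3. In HSC3, the 31 higher members became 12 without its DMEM library, 20 without the DMEM library of HSC4, and 18 and 16 without the HPLM and the DMEM library of SAS. The 12 lower members became 6 without either HSC3 library and 7 without the DMEM library of SAS. Without scaling factors, 9 members were lower in SAS.

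**Figure D4:**
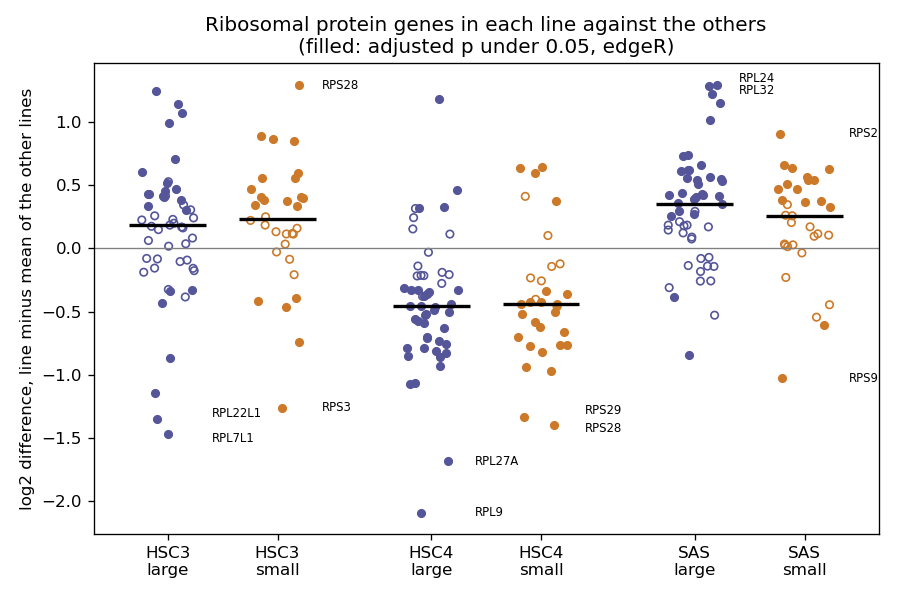
Log2 difference of each ribosomal protein gene between a line and the mean of the other lines (y axis), by line and subunit, with the median as a bar and genes past an adjusted p of 0.05 in edgeR filled. HSC4 lies mostly below 0, with RPL9 and RPL27A lowest, and SAS and HSC3 lie mostly above it.

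In HSC4, RPL9 had the largest difference of any member, -2.09 ± 0.12 (SE; edgeR's quasi-likelihood test, adjusted p = 0.000469).

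RPL27A, a protein near the peptidyl transferase centre, had 1033 CPM in HPLM and 801 CPM in DMEM in HSC4, against 3391 and 3671 CPM in HSC3 and 2483 and 2402 CPM in SAS. Both HSC4 libraries lay below all others, and the difference was -1.69 ± 0.13. RPS28 had 467 CPM in HPLM and 364 CPM in DMEM in HSC4, against 1490.4 and 1373 CPM in HSC3 and 919 and 744 CPM in SAS, a difference of -1.40 ± 0.10. RPS29 was lower, at -1.34 ± 0.09. RPL22L1 went the other way at 1.18 ± 0.09. In edgeR the adjusted p of these 4 genes was between 0.000565 and 0.000716.

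In HSC3, RPL7L1 was lower, at -1.47 ± 0.10, and RPL22L1 at -1.35 ± 0.10. RPS3, a protein of the mRNA entry channel that also acts in DNA repair, had 2440 CPM in HPLM and 2141 CPM in DMEM in HSC3, against 5604 and 5191 CPM in HSC4 and 6027 and 5132 CPM in SAS, a difference of -1.26 ± 0.09. RPS28 was higher in HSC3 by 1.29 ± 0.09. In edgeR the adjusted p of these 4 genes was between 0.00064 and 0.000672.

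In SAS, RPL24, whose protein bridges the subunits, had 4117 CPM in HPLM and 3714 CPM in DMEM, against 1915 and 1613 CPM in HSC3 and 1622 and 1281 CPM in HSC4, a difference of 1.30 ± 0.09. RPL32 had 4450.4 CPM in HPLM and 4082 CPM in DMEM, against 1438 and 1340 CPM in HSC3 and 2516 and 1932 CPM in HSC4, a difference of 1.28 ± 0.10. RPL3 was higher by 1.22 ± 0.08 and RPL7L1 by 1.15 ± 0.09. In edgeR the adjusted p of these 4 genes was between 0.000509 and 0.000882. The exceptions below the other lines in SAS were RPS9, RPL10, RPS27L and RPL36A, led by RPS9 at -1.03 ± 0.10, and of these 4 only RPS9 was still called without either SAS library.

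The line differences of members moved with those of the genes around them. For each of the 83 members, the median difference was taken over the tested genes whose midpoints lay within 5 Mb on the same chromosome, members left out, which gave between 10 and 208 genes. Across members, Pearson's r between the member's own difference and this median reached 0.81 for HSC3, 0.71 for HSC4 and 0.61 for SAS. These are descriptions over 83 genes that share libraries and, where members lie close together, neighbours. The differences of a gene in HSC3, HSC4 and SAS also depend on each other, so the r values are not separate results. No such r was taken over other genes, so whether the members are particular in this is not known.

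RPL7L1 on chromosome 6 was at -1.47 in HSC3 beside a neighbour median of -1.33, and RPS3 on chromosome 11 was at -1.26 beside -1.03. RPL32 on chromosome 3 was at 1.28 in SAS beside 0.90, and RPL24 on the same chromosome at 1.30 beside 0.77. In HSC4 most members lay below their neighbour median, among them RPL27A (-1.69 beside -0.27) and RPS29 (-1.34 beside -0.11). The members not below it were RPL10, RPL22L1, RPL26L1, RPL3L and RPS9. Some members stood far from their surroundings. RPL9 on chromosome 4 was at -2.09 in HSC4 beside -0.30, RPS28 on chromosome 19 was at -1.40 in HSC4 beside 0.12 and at 1.29 in HSC3 beside 0.02, and RPL3 on chromosome 22 was at 1.22 in SAS beside -0.01. The part of the chromosomal surroundings in the members' differences was not tested.

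**Figure D5:**
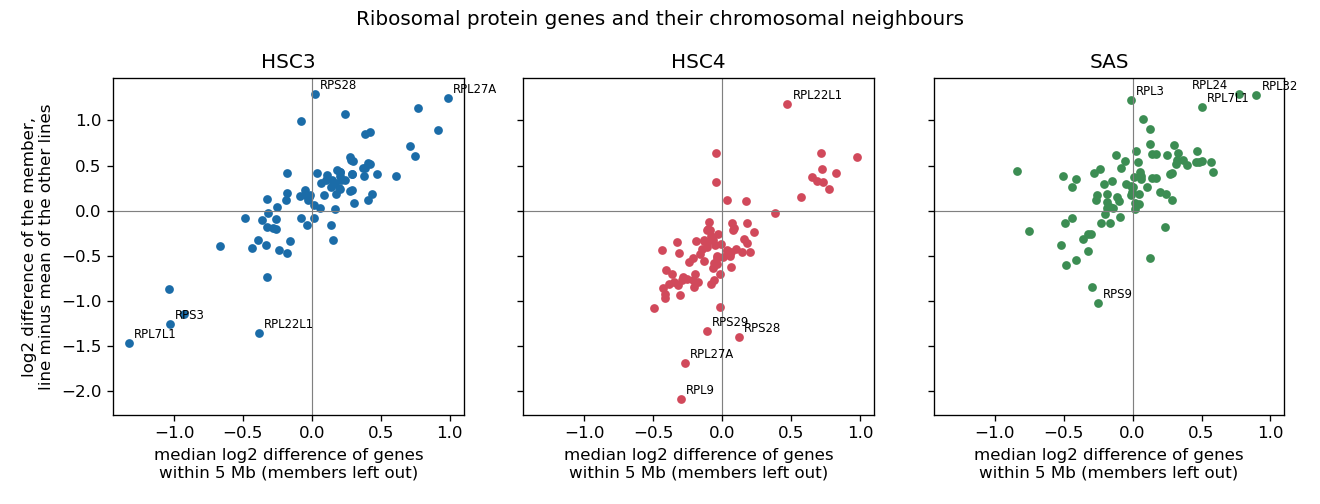
Log2 difference of each ribosomal protein gene between a line and the mean of the other lines (y axis) against the median difference of the tested genes within 5 Mb (x axis, members left out), 1 point per member. Points run from lower left to upper right in each line, with RPL9 and RPS28 far below the band in HSC4 and RPL3 above it in SAS.

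The other genes of the pathway had list medians closer to 0 between media than the members, with the 4 ribosome genes outside the rule at 0.13, and 0 genes of any list described here passed an adjusted p of 0.05 in edgeR. Among 4 ribosome genes whose symbols the rule does not take, 3 were above 0 and 1 below. FAU, the fusion that yields a small subunit protein, was at 0.22 ± 0.10. RPL36AL was the gene below 0, at -0.18 ± 0.08, and was lower in HPLM in every line. Of 15 other genes known for TOP mRNAs, 11 were above 0 with a median of 0.04. At an unadjusted p under 0.05, 2 were higher in HPLM, against 5.57% of all genes. They were the initiation factor subunits EIF3H (0.32 ± 0.09) and EIF3E (0.23 ± 0.09).

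Of 38 ribosome assembly factors, 29 were above 0 with a median of 0.06, and PNO1, which acts in small subunit maturation, was at 0.35 ± 0.10 and the nucleolar GTPase GNL2 at 0.35 ± 0.12. The 24 initiation factors had a median of 0.09, and their leading genes EIF3D and EIF3J were at 0.17 ± 0.09 and 0.18 ± 0.10. The 11 RNA polymerase I genes tested had a median of 0.03, led by POLR1E at 0.29 ± 0.10 and POLR1C at -0.29 ± 0.16. The 8 escorts of new ribosomal proteins had a median of -0.01, with PDCD2L at 0.15 ± 0.10 and BCCIP at 0.14 ± 0.10. The 19 tested genes of mTORC1, TOP mRNA binding and MYC had a median of 0.01, with the growth regulator MYC at 0.28 ± 0.17 and the stress-induced mTORC1 regulator SESN1 at -0.33 ± 0.20. By line, MYC had a log2 ratio of 0.78 in HSC4, -0.01 in SAS and 0.09 in HSC3, and without HSC4 its fitted change was 0.03. Of 13 host genes of small nucleolar RNAs, SNHG32 alone was tested, at 0.06 ± 0.10. The 12 epithelial markers had a median of 0.02 with 7 above 0. At an unadjusted p under 0.05, 4 were lower in HPLM and 1 higher, against 4.55% and 5.57% of all genes. ITGB4 was at -0.41 ± 0.13 and KRT17 at -0.40 ± 0.10, while EPCAM, named after its value was seen, was at 0.28 ± 0.10. CD14 and TUBB3, the leading genes among markers of other cell types, were at 0.30 ± 0.44 and 0.16 ± 0.23.

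The other TOP genes were also tested between lines. In HSC3, 3 of 15 were higher and 2 lower at an adjusted p of 0.05 in edgeR, with a median of 0.05. Of all genes, 19.8% were higher and 17.2% lower in HSC3. In HSC4, 13 of 15 were lower and 0 higher at an adjusted p of 0.05 in edgeR, with a median of -0.53. Of all genes, 19.2% were lower and 21.6% higher in HSC4. In SAS, 8 were higher and 1 lower, against 20.7% and 21.2% of all genes, with EIF3E at 1.22 ± 0.09. All 4 ribosome genes outside the rule were called lower in HSC4, against 19.2% of all genes. RPL36AL, a paralog of RPL36A, had 247 CPM in HPLM and 297 CPM in DMEM in HSC4, against 668 and 719 CPM in HSC3 and 398 and 447 CPM in SAS.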

How the data were processed

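Polyadenylated RNA was sequenced from strand-specific libraries on a DNBSEQ-G400, per the labels' protocols, and FastQC, kallisto and hg38 are named in the submitters' processing notes; no source used here gives their versions. The deposited values are estimated counts per transcript, scaled up by the authors from TPM to library size, and so are corrected for length but are not reads: no counting interval can be drawn from them. Each transcript was taken once (1312 repeated rows were left out), transcripts without a symbol (0.362% to 0.479% of a library) were dropped, and sums per symbol were rounded. Reads shared with pseudogenes, paralogs and readthrough genes cannot be told apart from the sums.

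edgeR 4.0.16 quasi-likelihood tests (TMM, line and medium as terms, filterByExpr with a minimum count of 10, R 4.3.3) were run over 13236 genes with Benjamini-Hochberg adjustment. CPM use TMM library sizes. The members, lists and tests were chosen with earlier results of these data known. Members are named where their level is among the 5 highest or 5 lowest, where they are divergent paralogs or their namesakes, where their p or change between media or off the common shift is among the most extreme, and, per line, for the 4 largest called differences; from each list the 2 smallest p-values are named. RPL36A, RPL36AL and transcripts of RPL10 and RPS24 were added after their values were seen. The same line pairs the libraries of both media: deviations from the medium means correlated at r = 0.779 in HSC3, 0.792 in HSC4 and 0.805 in SAS, so the line is in the main model. A few members and transcripts are counted in the totals but not reported by name here. On simulated counts the fit was tested and recovered known changes. The changes planted in single genes were larger than any fitted member change between media. The simulation therefore does not tell whether changes of the members' size would be called. Alternatives were other scalings (RLE, upper quartile, none), no filter, DESeq2 1.42.0, limma 3.58.1 (voom), no replicate block, each line or library left out, repeated rows, pseudogene counts added and coding transcripts alone.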

Additional observations from a re-analysis of the deposited data

Results flagged for a closer look

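RPL10 lay in opposite directions in different lines. Its log2 ratio of HPLM to DMEM was 0.74 in SAS and -0.53 in HSC4, past 0.5 in either direction, with 0.60 in HSC3. The difference between the lines was not tested, since each line has 1 library per medium. Its counted level, a mean of 97.1 CPM, was split between the coding transcript RPL10-207 and the retained-intron transcript RPL10-214, whose division varied between libraries.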

How the results depend on the processing

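The direction of the common shift held under every alternative run, with a member median between 0.11 (HSC4 left out) and 0.21 (HSC3 left out). With the length trend removed the mean of the line medians was 0.12, against 0.17. The SAS median then fell from 0.15 to 0.02, so little of the shift was left in that line. Calls were less stable. DESeq2 called 2 members between media, RPSA (adjusted p = 0.0121) among them. At an unadjusted p under 0.05, the 23 higher and 2 lower members became 8 higher without scaling, 1 lower with DESeq2 and 1 lower over coding transcripts; with 1 line left out they ranged from 8 to 22 higher and from 0 to 2 lower. Without the line as replicate block, 0 were higher and 0 lower, and 7 of 683 transcripts had such a p in place of 61; with 1 line left out, 31 to 53 did. With 1 library left out, members higher and lower ranged from 12 to 27 and 6 to 12 in HSC3, 4 to 7 and 26 to 51 in HSC4, and 10 to 41 and 1 to 6 in SAS. Without the medium as a term, 5 were higher in HSC4. In SAS, 9 were lower without scaling and 8 with DESeq2. The 4 largest called differences of each line kept their sign and call in all 192 refits of the line contrasts. Of the 4 members lower in SAS, only RPS9 was still called without either SAS library. Of 589 refits between media, 2 gained a call under DESeq2 (RPSA, KRT17) and 20 changed sign, in the 11 genes that follow. With 1 line left out, the log2 change ranged from -0.16 to 0.65 for CD14, from -0.034 to 0.41 for RPL22, from -0.018 to 0.030 for RPL3, from -0.079 to 0.17 for RPL37, from -0.077 to 0.48 for RPL3L, from -0.25 to 0.37 for RPS10, from -0.039 to 0.15 for RPS23, from -0.069 to 0.14 for RPS27, from -0.093 to 0.16 for RPS27L, from -0.0054 to 0.16 for SNHG32, and from -0.14 to 0.47 for TUBB3. It was -0.045 for RPL3 and -0.027 for RPS27 without scaling, -0.013 for RPL3 and -0.002 for RPL37 over coding transcripts, 0.014 for RPS10 with limma-voom, and 0.046 for RPS10 and -0.11 for TUBB3 without the replicate block. The cause of these reversals was not tested.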
